A study of Homo sapiens with 6 samples.

Results

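The 3 ARID4B knockout libraries of a K562 RNA sequencing study are described here by how they differ from each other. They are 3 of 6 libraries, the other 3 being wild type, and they were taken by their genotype label alone. K562 is a long-established leukemia cell line with features of red cell precursors. All 6 libraries came from cells kept in RPMI medium with serum and antibiotics and were labelled only by genotype and a number from 1 to 3. The labels give no clone, guide, passage, day or batch for either genotype, so it is not known here whether the knockout numbers stand for edited clones, pools or repeat cultures. Each knockout library was set against the other 2, with the spread of the wild-type libraries as the yardstick. There is then 1 library on 1 side of every comparison, so no p-value is given and no difference between knockout libraries has a replicate check.

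ARID4B is a subunit of the SIN3 complex, a corepressor that carries histone deacetylases to chromatin. K562 cells stand near the branch point of the erythroid and megakaryocytic lineages: they make embryonic and fetal globins and red cell surface proteins, and they can take on platelet genes under some treatments. GATA1 serves both lineages, KLF1 and SOX6 act in red cell precursors, and FLI1 and RUNX1 in megakaryocytes. KIT, the receptor of stem cell factor, marks progenitors and mast cells.

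The knockout libraries held 24287385, 21701404 and 23199532 estimated counts (knockout 1, 2 and 3) and the wild-type libraries 27889850, 30346244 and 23959811. Levels are given as CPM, counts put on the scale of an equal total per library, with TMM factors. A count of 0 allowed a level of up to 0.115 to 0.133 CPM in the knockout and 0.103 to 0.130 CPM in the wild-type libraries, taking 3 counts as the limit, which covers counting error only. Counts above 0 were found at 19188, 19066 and 18299 genes in knockout 1, 2 and 3, and at 16593 to 16835 genes in wild type. Mitochondrial rows made up 1.08%, 1.64% and 1.67% of knockout 1, 2 and 3 and 0.83% to 1.12% of the wild-type libraries, and 11.69% of the values of knockout 2 were not whole numbers, against 8.11% in knockout 1, 7.53% in knockout 3 and 6.9% to 7.2% in wild type. ARID4B itself (chr1:235294498-235491532 on hg19) measured 8.38, 7.20 and 7.67 CPM in knockout 1, 2 and 3, and 38.7, 41.2 and 41.1 CPM in wild type 1, 2 and 3. The knockout libraries lay close together at the targeted gene, with no library apart, and well below every wild-type library.

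Among 14054 genes with at least 1 CPM in at least 1 library, the median range of the 3 knockout libraries was 0.436 on the scale of log2(CPM + 0.5), against 0.15 for the 3 wild-type libraries. The biological coefficient of variation was 41.4% within the knockout and 4.81% within wild type. Knockout 1 was the farthest from the others: 12.33% of genes differed at least 2-fold between knockout 1 and 2 and 12.48% between knockout 1 and 3, but 7.78% between knockout 2 and 3. Pairs of wild-type libraries differed that much at 0.38% to 0.44% of genes.

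A library was counted as standing apart at a gene where it lay at least 2-fold above or below both other libraries of its genotype and, for the knockout, by more than the whole range of the wild-type libraries. At least 1 knockout library did so at 1708 genes, or 12.2%. Knockout 1 stood apart above at 767 genes (5.46%) and below at 225 (1.6%). Knockout 2 did so at 269 (1.91%) and 167 (1.19%), and knockout 3 at 143 (1.02%) and 311 (2.21%). Wild-type libraries 1, 2 and 3 stood apart from each other, in either direction, at 21 (0.149%), 20 (0.142%) and 19 (0.135%) genes. With edgeR's default filter, which drops genes seen in too few libraries, knockout 2 stood apart above at 110 genes and below at 154, so that its balance turned. At 174 genes the 3 knockout libraries were spread wide enough that 1 stood apart above and another below.

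Knockout 1 departed mainly upward and knockout 3 mainly downward, and their positions against wild type depended on the direction as well as the library. Of the 311 genes at which knockout 3 stood below, it was nearer to the wild-type mean than the other 2 knockout libraries were at 266 (85.5%). Of the 767 genes at which knockout 1 stood above, the same held for 59 (7.7%), and for 18 of the 269 (6.7%) at which knockout 2 stood above. Among genes below, the share was 55.6% in knockout 1 (125 of 225) and 64.7% in knockout 2 (108 of 167), and among genes above it was 24.5% in knockout 3 (35 of 143). The genes at which knockout 1 stood above had wild-type means under 1 CPM in 70.0% of cases and those of knockout 2 in 79.9%. For genes at which knockout 3 stood below the share was 64.3%, against 15.4% of all genes measured. A gene silent in wild type entered the analysis only through a knockout library. This favours gaps upward in that library, and gaps downward where 1 knockout library stays near wild type and the other 2 do not. The 85.5% of knockout 3 is therefore not free of the filter. Near the limit, 165 of the genes of knockout 1 had an upward gap of 1 to 1.2 log2 units, and a further 223 had gaps of 0.8 to 1.

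**Figure D1:**
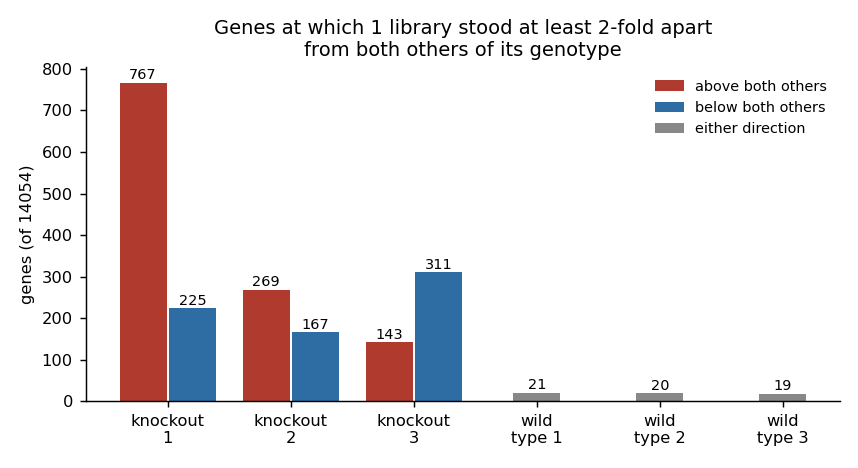
Number of genes, of 14054, at which a library lay at least 2-fold above (red) or below (blue) both other knockout libraries and by more than the wild-type range; grey bars give the same 2-fold count for each wild-type library in either direction. Knockout 1 had 767 genes above, and the wild-type libraries 19 to 21 genes each.

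The 5 marker genes did not all set the same library apart. HBE1, the embryonic globin of the beta cluster on chromosome 11, measured 3321 CPM in knockout 1, against 10934 and 9259 CPM in knockout 2 and 3 and 2966, 2581 and 2628 CPM in wild type 1, 2 and 3. Knockout 1 was low among the knockout libraries at HBE1 and lay just above the wild-type libraries, 1.60 below the mean of the other 2 knockout libraries on the log2 scale. KIT (chr4:55524095-55606881 on hg19, as all gene coordinates here) measured 2.93 CPM in knockout 2, against 18.8 and 12.3 CPM in knockout 1 and 3 and 1.28, 0.893 and 1.09 CPM in wild type. At KIT, knockout 2 was the low library, by 2.19 log2 units, and still lay above every wild-type library.

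ITGA2B, the platelet integrin alpha IIb (chr17:42449550-42466873), measured 18.8 CPM in knockout 3, against 70.5 and 50.6 CPM in knockout 1 and 2 and 3.32, 2.58 and 3.17 CPM in wild type. Here knockout 3 was the low library, by 1.64 log2 units. FLI1, an ETS factor of megakaryocytes (chr11:128556430-128683162), measured 0.503 CPM in knockout 3, against 11.7 and 5.42 CPM in knockout 1 and 2, and had no count in any wild-type library. Its knockout libraries were spread so that knockout 1 stood apart above and knockout 3 below. MX2, an interferon-induced GTPase (chr21:42733950-42780869), measured 34.2 CPM in knockout 1, against 3.20 and 1.93 CPM in knockout 2 and 3 and 0.0755, 0.0344 and 0.0434 CPM in wild type. At MX2, knockout 1 was high by 3.53 log2 units and all knockout libraries lay above all wild-type libraries.

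**Figure D2:**
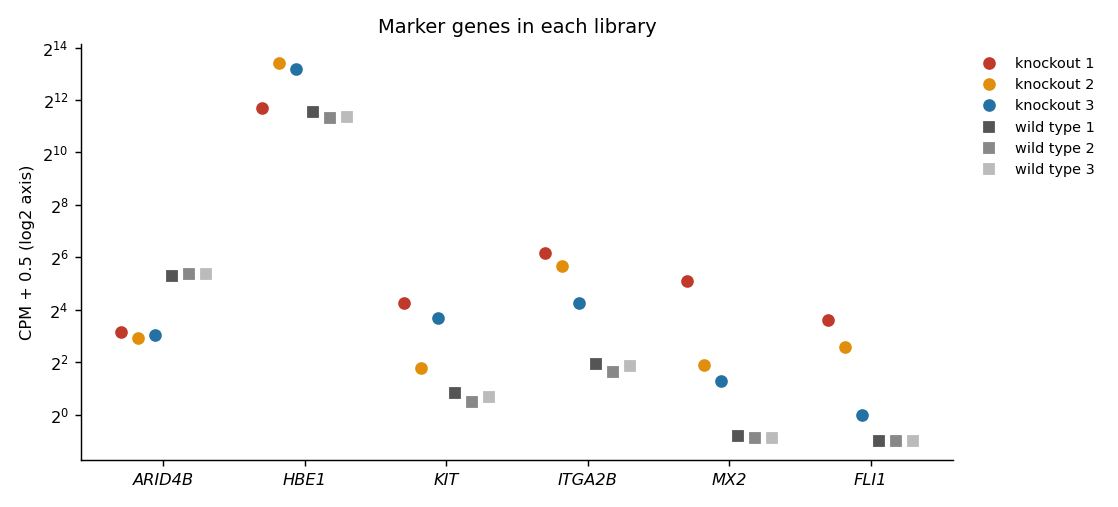
Level of ARID4B and the 5 marker genes in each library, as CPM + 0.5 on a log2 axis; circles are knockout and squares wild-type libraries. The knockout libraries coincide at ARID4B (7.20 to 8.38 CPM), while knockout 1 is low at HBE1 and high at MX2 and FLI1, knockout 2 is low at KIT, and knockout 3 is low at ITGA2B and FLI1.

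Red cell genes set knockout 1 apart on the low side. Of 32 measured genes of the red cell membrane and surface, 11 stood apart below in knockout 1 (225 of 14054 genes, or 1.6%, did so overall) and none above. The median difference of the list was -0.85 for knockout 1, 0.55 for knockout 2 and 0.43 for knockout 3, against a median of -0.01 over all genes in each of them and -0.00 to 0.03 for the list in the wild-type libraries. The summed level of the list was 3512 CPM in knockout 1, against 5744 and 5626 CPM in knockout 2 and 3 and 5607 to 5654 CPM in wild type. Knockout 1 therefore lay away from both the other knockout libraries and wild type. In bulk RNA, fewer cells of a type and less RNA per cell cannot be told apart.

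Among the 11 members were the sialoglycoproteins GYPB and GYPE, the anion exchanger SLC4A1, the skeleton protein EPB42, the Rh proteins RHAG and RHCE, the Kell and Kx blood group proteins KEL and XK, and ERMAP. ERMAP, a red cell membrane protein that carries the Scianna blood group, measured 49.97 CPM in knockout 1, against 155 and 132 CPM in knockout 2 and 3 and 121, 123 and 125 CPM in wild type. RHAG, the Rh-associated glycoprotein, measured 273 CPM in knockout 1, against 551 and 579 CPM in knockout 2 and 3 and 667, 677 and 689 CPM in wild type. At both genes knockout 1 was below the other 5 libraries. SLC4A1, band 3, measured 26.3 CPM in knockout 1, against 55.1 and 65.7 CPM in knockout 2 and 3, but 4.09 to 5.59 CPM in wild type, so that at this gene knockout 1 was the knockout library nearest to wild type. GYPB and GYPE, at 13.3 and 21.1 CPM in knockout 1 against 55.8 to 131 CPM in the other knockout libraries, and RHCE with its neighbour RHD, share long stretches of sequence and are uncertain as single genes. XK lies in a chromosome block whose genes were lower in knockout 1 as a group, described further on. With the block medians removed, 7 of the 32 members stood apart below in knockout 1, and XK differed by -0.42 in place of -1.09.

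Promoter windows were available for 7 of those 11 members (250 bases before to 50 after the start, RefSeq, GRCh38.p14). The GATA box AGATAA, searched on both strands as a short form of the GATA factor motif, was present in 5 of the 7, namely RHCE, GYPE, GYPB, KEL and EPB42, and absent from ERMAP and RHAG. It was present in 3628 of all 35116 windows (10.3%). The windows of GYPB and GYPE are near-copies of each other and are not independent. The windows of EPB42 (chr15:43220969-43221268, minus strand), KEL (chr7:142962314-142962613, minus strand) and GYPB (chr4:144019331-144019630, minus strand) are shown since their genes were low together in knockout 1, 5′ to 3′ along the gene, with each GATA box in capitals.
EPB42: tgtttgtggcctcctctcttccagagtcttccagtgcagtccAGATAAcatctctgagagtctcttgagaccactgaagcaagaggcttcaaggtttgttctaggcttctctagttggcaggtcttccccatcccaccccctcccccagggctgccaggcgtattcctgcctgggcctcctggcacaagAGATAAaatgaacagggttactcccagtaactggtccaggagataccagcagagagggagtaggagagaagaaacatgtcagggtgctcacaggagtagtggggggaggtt
KEL: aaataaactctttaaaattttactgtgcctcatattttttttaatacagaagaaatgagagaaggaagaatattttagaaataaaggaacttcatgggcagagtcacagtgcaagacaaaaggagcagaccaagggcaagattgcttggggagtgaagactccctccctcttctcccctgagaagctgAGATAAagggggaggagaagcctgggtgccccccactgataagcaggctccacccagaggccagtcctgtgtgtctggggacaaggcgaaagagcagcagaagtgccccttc
GYPB: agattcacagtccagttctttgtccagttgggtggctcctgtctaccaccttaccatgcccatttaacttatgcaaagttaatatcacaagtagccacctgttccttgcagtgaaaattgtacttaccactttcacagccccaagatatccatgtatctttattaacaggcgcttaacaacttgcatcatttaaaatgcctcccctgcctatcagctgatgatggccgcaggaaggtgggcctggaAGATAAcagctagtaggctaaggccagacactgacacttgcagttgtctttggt
EPB42 measured 3.57 CPM in knockout 1, against 7.78 and 9.97 CPM in knockout 2 and 3 and 4.64 to 5.08 CPM in wild type. KEL measured 26.7 CPM in knockout 1, against 83.0 and 79.2 CPM in knockout 2 and 3 and 76, 70.2 and 73.1 CPM in wild type. A match is a description of the letters in the window, not of a bound site.

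Globins had the same order of list medians, though not the same position against wild type. The median of 9 measured globins was -0.61 for knockout 1, 0.57 for knockout 2 and 0.05 for knockout 3. Knockout 1 was the lowest knockout library at 5 of the 9 (4945 of all 14054 genes) and knockout 3 at 4, and knockout 2 was highest at 8. Summed globin levels were 16613.5, 31255.9 and 23789.5 CPM in knockout 1, 2 and 3 and 16974 to 18658.5 CPM in wild type. Here knockout 1 was the knockout library nearest to wild type. HBZ, the embryonic globin of the alpha cluster, measured 916 CPM in knockout 1, against 1875 and 1621 CPM in knockout 2 and 3 and 852 to 1003 CPM in wild type. HBG1 and HBG2, the fetal pair whose reads cannot be fully separated, measured 8984 and 6370 CPM in knockout 2, against 6242 and 4166 CPM in knockout 1, 5905 and 4009 CPM in knockout 3, and 6983 to 7432 and 4541 to 4983 CPM in wild type. HBD, delta globin, measured 115 CPM in knockout 2, against 23.3 and 11.7 CPM in knockout 1 and 3 and 33.6 to 40.0 CPM in wild type, and was the globin at which knockout 2 stood apart above. HBB, adult beta globin, stayed under 1.3 CPM in every library.

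Of 31 measured genes of erythroid maturation, 4 stood apart below in knockout 1 (1.6% of all genes did), among them MYL4, SOX6 and SELENBP1, and CA2, a carbonic anhydrase, above (5.46% of all genes did), with list medians of -0.42, 0.31 and 0.15 for knockout 1, 2 and 3. SOX6, a repressor of embryonic globin, measured 1.27 CPM in knockout 1, against 7.33 and 10.1 CPM in knockout 2 and 3 and 13.5, 15.6 and 15 CPM in wild type. SELENBP1, a selenium-binding protein, measured 6.23 CPM in knockout 1, against 34.5 and 43.7 CPM in knockout 2 and 3 and 43.8 to 45.3 CPM in wild type. AHSP, the chaperone of free alpha globin, measured 2.72 CPM in knockout 3, against 0.269 and 0.444 CPM in knockout 1 and 2 and 10.6 to 13.7 CPM in wild type. Here knockout 3 was the high library and remained below wild type. Heme synthesis and iron genes leaned the same way, with medians of -0.28, 0.19 and 0.10. Of 28 measured, 17 were lowest in knockout 1 (4945 of all 14054 genes were), but none stood apart. Water channel AQP1 broke the order: it measured 70.4 CPM in knockout 2, against 33.2 CPM in knockout 1 and 7.67 CPM in knockout 3, and 11.0 to 14.5 CPM in wild type.

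Platelet genes set knockout 3 apart. Of 36 measured megakaryocyte and platelet genes, 9 stood apart below in knockout 3 (2.21% of all genes did) and none above, while in knockout 1 5 stood apart above (5.46% of all genes did) and 2 below (1.6%). The list medians were -0.53 for knockout 3, against 0.15 and 0.20 for knockout 1 and 2. The 9 members were ITGA2B, ITGA2, PPBP, SELP, CD9, TBXAS1, PTGS1, RAB27B and PLEK. At least ITGA2, PPBP and SELP entered the analysis only through knockout 1 and 2, where they were high. Their part in the count of 9 is therefore not independent of the filter. PPBP, a platelet chemokine precursor, measured 0.0838 CPM in knockout 3, against 14.7 and 3.87 CPM in knockout 1 and 2, and had no count in wild type. SELP, P-selectin, measured 0.0419 CPM in knockout 3, against 8.38 and 2.44 CPM in knockout 1 and 2, and up to 0.0377 CPM in wild type. PLEK, pleckstrin, measured 1.05 CPM in knockout 3, against 30.2 and 6.67 CPM in knockout 1 and 2 and 0.151, 0.206 and 0.174 CPM in wild type. At PPBP and SELP, knockout 3 was at or under the level that a count of 0 allows, as was wild type, and knockout 1 stood apart above at all of PPBP, SELP and PLEK.

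PTGS1, the platelet cyclooxygenase, measured 23.2 CPM in knockout 3, against 74.5 and 52.1 CPM in knockout 1 and 2 and 6.11, 6.18 and 6.39 CPM in wild type. RAB27B, a GTPase of granule release, measured 16.9 CPM in knockout 3, against 48.0 and 36.3 CPM in knockout 1 and 2 and 2.53, 2.27 and 3.17 CPM in wild type. At both genes every knockout library lay above wild type and knockout 3 least so. Members did not all follow: ITGB3, the partner of ITGA2B, measured 13.1 CPM in knockout 3, against 19.9 and 26.6 CPM in knockout 1 and 2, a gap under 2-fold. TUBB1, the platelet tubulin, was low in knockout 1 instead, at 24.7 CPM against 91.4 and 63.1 CPM in knockout 2 and 3 and 23.8 to 26.0 CPM in wild type. A further 11 listed genes stayed under 1 CPM in every library, and 5 of them had no count anywhere.

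Promoter windows of all 9 platelet members were available. The ETS core (CCGGAA or AGGAAG, both strands) was present in 7 of the 9 and in 45.4% of all windows, and the RUNX box TGTGGT in 3 of the 9 and in 13.1% of all windows. The ETS core was absent from the windows of PLEK and ITGA2. ITGA2B and PPBP had the order of the ETS factor FLI1 over the knockout libraries, highest in knockout 1 and lowest in knockout 3. PLEK and ITGA2 had that order too, and a part of FLI1 was not tested. The windows of ITGA2B (chr17:44389600-44389899, minus strand) and PPBP (chr4:73988141-73988440, minus strand) are shown as 2 examples, with each ETS core in capitals.
ITGA2B: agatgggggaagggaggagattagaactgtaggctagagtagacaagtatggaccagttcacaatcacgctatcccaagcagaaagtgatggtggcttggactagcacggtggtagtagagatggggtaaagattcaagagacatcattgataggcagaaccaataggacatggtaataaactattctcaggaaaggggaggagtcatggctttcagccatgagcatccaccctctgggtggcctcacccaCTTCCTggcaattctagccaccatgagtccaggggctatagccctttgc
PPBP: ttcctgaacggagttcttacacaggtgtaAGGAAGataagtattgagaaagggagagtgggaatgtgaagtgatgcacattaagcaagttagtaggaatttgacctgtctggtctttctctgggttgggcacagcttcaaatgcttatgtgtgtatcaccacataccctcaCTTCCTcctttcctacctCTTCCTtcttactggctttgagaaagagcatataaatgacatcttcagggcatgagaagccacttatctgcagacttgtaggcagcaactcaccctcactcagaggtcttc
Where the match lies on the other strand it reads CTTCCT, the reverse complement of the ETS core.

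Transcription factors of both lineages did not shift as a list. Of 41 measured, 6 had a knockout library apart, near the 12.2% of all genes, and the medians were 0.09, 0.08 and -0.12 for knockout 1, 2 and 3. RUNX1, which acts in megakaryocytes and stem cells, measured 51.7 CPM in knockout 3, against 129.5 and 105 CPM in knockout 1 and 2 and 68.2, 77.9 and 69.2 CPM in wild type. RUNX1 in knockout 3 lay below all other libraries. GATA1 measured 191 CPM in knockout 1, against 309.5 and 269.98 CPM in knockout 2 and 3 and 251 to 286 CPM in wild type, and lies in the block of chromosome X that was low in knockout 1. GATA2, which precedes GATA1 in progenitors, measured 262 CPM in knockout 1, against 134 and 179 CPM in knockout 2 and 3 and 189.9 to 195 CPM in wild type. ETS1, in contrast, lay at nearly the same level in all of them: it measured 32.6, 30.6 and 31.7 CPM in knockout 1, 2 and 3 and 0 to 0.0869 CPM in wild type.

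Mast cell and basophil genes were mostly highest in knockout 1, and more of them were lowest in knockout 2 than in knockout 3. Of 12 measured mast cell and basophil genes, 11 were highest in knockout 1 and 7 lowest in knockout 2. Among all 14054 genes these numbers were 5023 and 4324. Of the 12, 3 stood apart above in knockout 1 (5.46% of all genes did) and 3 below in knockout 2 (1.19%). The medians were 1.02, -0.63 and -0.18 for knockout 1, 2 and 3. ENPP3, a basophil surface enzyme, measured 3.47 CPM in knockout 2, against 17.5 and 15.8 CPM in knockout 1 and 3 and 14.8, 17.6 and 16.7 CPM in wild type. PRG2, a granule protein of eosinophils and basophils, measured 0.933 CPM in knockout 2, against 10.3 and 6.12 CPM in knockout 1 and 3 and 5.94 to 7.34 CPM in wild type. At both, knockout 2 lay below all 5 other libraries. Others did not follow: FCER1A, the alpha chain of the IgE receptor, measured 5.07 CPM in knockout 2, against 1.92 and 0.880 CPM in knockout 1 and 3, and stood apart above there. SLC18A2, a monoamine transporter of granules, measured 0.377 CPM in knockout 3, against 10.3 and 2.36 CPM in knockout 1 and 2, and stood apart below in knockout 3. MS4A3 and CD33, surface proteins of myeloid precursors, measured 11.9 and 21.9 CPM in knockout 1, against 1.42 to 8.49 CPM in the other knockout libraries. The remaining 11 of the 23 listed genes were under 1 CPM everywhere, and 4 of these, including the mast cell proteases CPA3 and CMA1, had no count in any library. The tryptase genes TPSAB1 and TPSB2 reached 0.0769 and 0.0384 CPM at most.

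Of 35 measured genes of KIT signalling, 5 had a knockout library apart, near the 12.2% of all genes, and the medians were near 0 (0.17, -0.13 and 0.02). VAV1, a guanine nucleotide exchange factor of blood cells, measured 1.96 CPM in knockout 2, against 8.57 and 5.03 CPM in knockout 1 and 3 and 4.91 to 5.81 CPM in wild type. CBLB, a ubiquitin ligase that turns off receptor signalling, measured 2.04 CPM in knockout 1, against 26.2 and 14.04 CPM in knockout 2 and 3 and 5.63 to 6.56 CPM in wild type. PLCG2, a phospholipase, measured 21.3 CPM in knockout 1, against 10.1 and 6.20 CPM in knockout 2 and 3 and 2.53 to 4.30 CPM in wild type. Among Src family kinases and adaptors, 3 of 15 had a library apart (12.2% of all genes did). PTPRC, the phosphatase CD45 that activates these kinases in leukocytes, measured 3.42 CPM in knockout 1, against 160.2 and 38.05 CPM in knockout 2 and 3 and 69.3, 74.4 and 74.6 CPM in wild type. It was the widest difference of these lists, with knockout 1 apart below and knockout 2 above, and it lies in a part of chromosome 1 with neighbourhood medians of -0.39 in knockout 1 and 0.49 in knockout 2. MATK, a kinase that inhibits Src kinases, measured 23.9 CPM in knockout 1, against 3.47 and 1.89 CPM in knockout 2 and 3 and 28.6 to 31.6 CPM in wild type, so that the other 2 knockout libraries were those away from wild type. ERK feedback and immediate early genes had 1 of 25 members apart, SPRY1 (12.2% of all genes had a library apart).

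Few markers of other blood cells were measured, and those that were had list medians about as wide as those of the red cell list. Of 28 T, NK and B lymphocyte genes 6 were measured, with a summed level of 31.7, 20.6 and 25.0 CPM in knockout 1, 2 and 3 and 7.43 to 8.79 CPM in wild type. Their medians were 1.11, -0.60 and -0.24 for knockout 1, 2 and 3. Of the 6, 4 were highest in knockout 1 (5023 of all 14054 genes were), and 4 had a library apart (12.2% of all genes did). CD8A, MS4A1, GZMA, GNLY and KLRD1 had no count in any library. Of 25 monocyte, macrophage and granulocyte genes 8 were measured, summing to 166, 156 and 178 CPM in knockout 1, 2 and 3 and 89.8 to 94.4 CPM in wild type, while CD163, ELANE, FCN1, C1QA and C1QB had no count. Their medians were 0.78, -0.93 and -0.03 for knockout 1, 2 and 3. Of the 8, 6 were highest in knockout 1 (5023 of all 14054 genes were), and 4 had a library apart (12.2% of all genes did). Of 24 endothelial genes 15 were measured and 9 had a library apart (12.2% of all genes did), with medians of -0.04, -0.18 and -0.18. KDR, a VEGF receptor, measured 3.96 CPM in knockout 1, against 0.0889 and 0.126 CPM in knockout 2 and 3, and FLT1, another, measured 12.4 CPM in knockout 3, against 4.69 and 4.18 CPM in knockout 1 and 2. The 2 receptors thus set different libraries apart, and EMCN and SOX17 had no count. KDR and VCAN, the latter of the monocyte list, entered the analysis only through knockout 1, where they were high. Of the 2162 measured genes with a wild-type mean under 1 CPM, 537 stood apart above in knockout 1. The counts of these lists, and of other lists with such members, are therefore not free of the filter, and the share of all genes is a loose yardstick for them. Whether a small share of other cells took part in these values was not tested.

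Guanylate-binding proteins, GTPases induced by interferon gamma that act against microbes inside cells, had the widest list medians of knockout 1, at 2.11, and of knockout 2, at -1.91, with 0.36 for knockout 3. All 4 measured members had a library apart. None of the 4 reached 1 CPM in wild type, so they entered the analysis only through knockout libraries. GBP3 did so through knockout 1 alone, at 3.11 CPM against 0.267 and 0.587 CPM in knockout 2 and 3. The list medians and the count of 4 are therefore not free of the filter. The 3 listed genes left out rested on few counts, with GBP1 highest in knockout 1 and GBP6 and GBP7 in knockout 3. GBP5 measured 7.24 CPM in knockout 2, against 90.1 and 47.5 CPM in knockout 1 and 3 and 0.0755, 0.103 and 0.0434 CPM in wild type. GBP4 measured 4.89 CPM in knockout 2, against 44.97 and 13.7 CPM in knockout 1 and 3 and 0.113, 0.137 and 0.0869 CPM in wild type. GBP2 measured 2.89 CPM in knockout 2, against 8.11 and 11.3 CPM in knockout 1 and 3 and 0.226 to 0.584 CPM in wild type. The 4 genes are neighbours on chromosome 1, so they are not independent, and the genes around them had neighbourhood medians of -0.09, -0.33 and 0.46 in knockout 1, 2 and 3. With these removed, the members apart below in knockout 2 numbered 2 in place of 3 and those apart above in knockout 1 numbered 3 in place of 2, and GBP5 differed by -2.76 in knockout 2 in place of -3.09. The window of GBP4 (chr1:89198893-89199192, minus strand, GRCh38.p14), the only window available among the 3 members low in knockout 2, held the interferon response repeat GAAANNGAA, which 8.1% of all windows hold. It is shown with the repeat in capitals, read on the other strand.
GBP4: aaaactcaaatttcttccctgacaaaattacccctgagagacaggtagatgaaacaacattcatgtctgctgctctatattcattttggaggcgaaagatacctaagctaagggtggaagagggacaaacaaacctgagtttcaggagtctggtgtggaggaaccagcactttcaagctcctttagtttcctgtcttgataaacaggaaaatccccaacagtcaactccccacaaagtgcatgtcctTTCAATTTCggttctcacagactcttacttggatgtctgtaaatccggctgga

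The wider list of interferon-stimulated genes did not share this spread. Of 47 measured interferon-stimulated genes, 7 had a library apart, near the 12.2% of all genes. In knockout 1, MX2 and USP18 stood apart above (5.46% of all genes did) and IFI16 and RSAD2 below (1.6%). In knockout 2, 3 stood apart below (1.19%), and in knockout 3, 1 above (1.02%). The medians were 0.12, -0.12 and -0.04 for knockout 1, 2 and 3. Summed over the list the levels were 1532, 1373 and 1394 CPM in knockout 1, 2 and 3 and 1369 to 1398 CPM in wild type. The 3 low in knockout 2 were the membrane proteins IFITM1, IFITM2 and IFITM3, which block virus entry and are neighbours on chromosome 11. IFITM3 measured 5.02 CPM in knockout 2, against 23.8 and 54.2 CPM in knockout 1 and 3 and 49.2, 50.9 and 49.4 CPM in wild type. IFITM1 measured 56.5 CPM in knockout 2, against 221 and 123 CPM in knockout 1 and 3 and 292 to 321 CPM in wild type. Knockout 2 was the lowest of all 6 libraries at these genes. In antigen presentation, 12 of 16 measured genes were highest in knockout 1 (5023 of all 14054 genes were). Of the 16, 3 stood apart above there (5.46% of all genes did). HLA-C, a class I gene with near-identical relatives, measured 7.37 CPM in knockout 3, against 49.1 and 24.4 CPM in knockout 1 and 2 and 1.89 to 2.76 CPM in wild type.

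Adhesion and matrix genes differed in many directions. CD44, a hyaluronan receptor, measured 125 CPM in knockout 1, against 34.7 and 36.3 CPM in knockout 2 and 3 and 0.868, 0.653 and 0.956 CPM in wild type. COL1A2, a collagen chain, measured 14.4 CPM in knockout 1, against 201 and 229.6 CPM in knockout 2 and 3 and 8.61, 9.04 and 7.95 CPM in wild type. Its partner chain COL1A1 did not follow it, with 7.21 CPM in knockout 3 against 26.0 and 28.8 CPM in knockout 1 and 2. LAMC1, a laminin chain, measured 83.1 CPM in knockout 1, against 12.9 CPM in knockout 2 and 2.60 CPM in knockout 3, and 0.130 to 0.275 CPM in wild type. VIM, vimentin, measured 359 CPM in knockout 2, against 962 and 1047 CPM in knockout 1 and 3 and 141 to 153 CPM in wild type. Of 22 measured matrix genes 11 had a library apart (12.2% of all genes did), and no single library accounted for them: 3 stood above and 1 below in knockout 1, 2 below in knockout 2, and 2 above and 4 below in knockout 3. TGF-beta and BMP feedback genes leaned to knockout 1, where 16 of 22 were highest (5023 of all 14054 genes were). Their medians were 0.55, -0.06 and -0.43 for knockout 1, 2 and 3, and 7 members had a library apart (12.2% of all genes did). For the lists not described further, the share of all genes with a library apart was again 12.2%. A library stood apart at 8 of 26 integrins and adhesion molecules, 3 of 14 stem and progenitor genes, 7 of 19 imprinted genes and 6 of 17 cancer-testis antigens. The same held for 4 of 27 cytokine receptor genes, 2 of 29 hypoxia and glycolysis genes and 2 of 18 heat shock chaperones.

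Basic cell functions varied little. None of the measured members of the SIN3-HDAC complex (29), cytosolic ribosomal proteins (39), S phase and DNA replication genes (36), mitosis genes (32), nuclear-encoded oxidative phosphorylation genes (33), ribosome assembly factors (29), cell cycle inhibitors and p53 targets (21) or replication-dependent histones (15) had a knockout library apart, against 12.2% of all genes. Some leaned as groups all the same. Cytosolic ribosomal proteins were lowest in knockout 2 at 29 of 39 genes (4324 of all 14054 genes were), with a median of -0.18. Cholesterol and fatty acid synthesis genes were highest in knockout 3 at 22 of 27 (4642 of all 14054 genes were). Their median there was 0.41, against -0.31 in knockout 1 and -0.03 in knockout 2. Genes of ATF4 and of the unfolded protein response, taken as 1 list, were lowest in knockout 2 at 19 of 27 (4324 of all 14054 genes were). Their median there was -0.35. PSAT1, an enzyme of serine synthesis, measured 38.0 CPM in knockout 2, against 118 and 138 CPM in knockout 1 and 3 and 123, 127 and 129 CPM in wild type. PHGDH, the first enzyme of that pathway, measured 104 CPM in knockout 3, against 38.6 and 25.7 CPM in knockout 1 and 2 and 32.9 to 39.9 CPM in wild type.

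**Figure D3:**
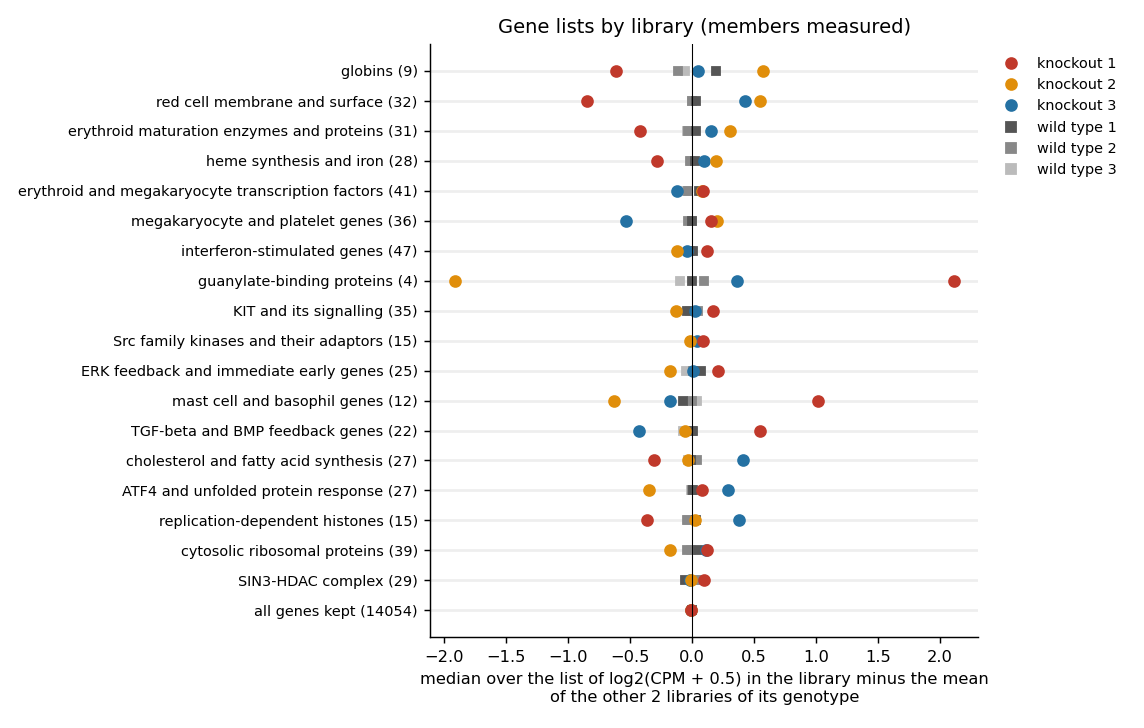
Median over each gene list of the difference between a library and the mean of the other 2 of its genotype, on the log2(CPM + 0.5) scale; circles are knockout and squares wild-type libraries, and the number of measured members stands in brackets. Knockout 1 is lowest at the red cell list (-0.85) and highest at guanylate-binding proteins (2.11), knockout 3 is lowest at platelet genes (-0.53), and the wild-type squares of the lists shown stay between -0.11 and 0.19.

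The widest single differences lay mostly outside these lists. In knockout 1 they were TEX19, a germ cell gene, at 105 CPM against 2.04 and 2.47 CPM in knockout 2 and 3 and 1.78 to 2.405 CPM in wild type, followed by the axonal motor KIF1A, B3GAT1, the melanin enzyme DCT, KLHL29 and the natriuretic peptide receptor NPR3. On the low side, ANXA1, a lipid-binding protein, measured 10.4 CPM in knockout 1, against 170.05 and 399.8 CPM in knockout 2 and 3 and 319 to 359 CPM in wild type. AKR1C3, COL1A2, HAND2 and SCIN were also among the 6 widest. TEX19 in knockout 1 stood above all other libraries, and ANXA1 in knockout 1 stood below all others.

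In knockout 2, TTN, the giant muscle protein, measured 21.6 CPM, against 0.0769 and 0.168 CPM in knockout 1 and 3 and up to 0.0687 CPM in wild type. ENTPD1, an ectonucleotidase, measured 32.5 CPM in knockout 2, against 1.35 and 0.251 CPM in knockout 1 and 3 and 0.0434 to 0.113 CPM in wild type. The cancer-testis antigen CTAG2 measured 55.2 CPM in knockout 2, against 1.77 and 0.0419 CPM in knockout 1 and 3 and 14.6 to 15.9 CPM in wild type. A further 3 records, CEMP1, TFDP3 and the pseudogene OR7E12P, measured 11.8, 8.44 and 9.82 CPM in knockout 2 and 0 CPM in knockout 1 and 3. These are uncertain. In the annotation, exons of 246 genes overlapped a far higher gene on the opposite strand, with a mean at least 10 times their highest knockout level. Of these 246, knockout 2 stood apart above at 27 (11.0%), knockout 1 at 10 (4.1%) and knockout 3 at 2 (0.8%). Their median was 0.05 in knockout 2. None of the genes named by the rule, CEMP1, TFDP3 and OR7E12P included, was found among the 246. The search covered the 12308 of 14054 genes matched to the annotation. The limit of 10 times also makes genes with a high knockout level unlikely to be found, so this absence says little about the named genes. No source used here says whether reads were counted by strand, and its part in these gaps was not tested. On the low side of knockout 2 stood TP63, a p53 relative, at 0.0889 CPM against 9.72 and 6.83 CPM in knockout 1 and 3, and MAGEA1, a cancer-testis antigen, at 6.89 CPM against 72.0 and 71.1 CPM. PRDM9, which places recombination sites in germ cells, measured 0.400 CPM in knockout 2, 8.07 CPM in knockout 1 and 66.3 CPM in knockout 3, and 0.478 to 0.491 CPM in wild type, and was apart on both sides.

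In knockout 3, MUC19, a gel-forming mucin, measured 22.4 CPM, against 0.0384 and 0.178 CPM in knockout 1 and 2 and 2.30 to 3.09 CPM in wild type. ALDH1A1, an enzyme of retinoic acid synthesis, measured 42.6 CPM in knockout 3, against 0.461 and 7.82 CPM in knockout 1 and 2 and 11.9 to 13.4 CPM in wild type. The widest loss was HSD17B12 (chromosome 11), an enzyme of fatty acid elongation, at 0.126 CPM in knockout 3, against 19.2 and 23.1 CPM in knockout 1 and 2 and 26.5 to 29.1 CPM in wild type. It was the gene with the widest downward gap in knockout 3 among those named, and the genes around it had a neighbourhood median of 0.06 in knockout 3. VCX, VCX3B, HOTAIRM1 and CECR2 were also among the 6 widest on the low side.

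Neighbouring genes differed together along parts of several chromosomes. The median difference over 51 neighbouring genes passed 0.3 (log2) in size at 4.1% of the positioned genes in knockout 1, 8.2% in knockout 2 and 9.4% in knockout 3, and at none in wild type, where such medians stayed between -0.1 and 0.13. The short arm of chromosome X (2.7 to 49.6 Mb on hg19, 163 genes) had a median of -0.69 in knockout 1, against 0.40 and 0.30 in knockout 2 and 3, and 127 of its genes were on the low side. Against the wild-type mean the same genes had medians of -0.47, 0.11 and 0.00 in knockout 1, 2 and 3. On chromosome 3, 150 genes between 138.1 and 186.1 Mb had a median of -0.51 in knockout 2, against 0.24 and 0.27 in knockout 1 and 3. Set against the wild-type mean, these genes had medians of -0.57 in knockout 2, -0.07 in knockout 1 and -0.03 in knockout 3. Both blocks set 1 knockout library apart while the other 2 lay near wild type.

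On chromosome 1, 356 genes between 154.4 and 214.7 Mb had a median of 0.46 in knockout 2, against -0.30 and -0.14 in knockout 1 and 3. Nearer to the end of that arm, 49 genes from 235.3 to 249.2 Mb, a block that begins with ARID4B, had medians against wild type of -0.77 in knockout 2, -0.37 in knockout 1 and -0.24 in knockout 3, so that all 3 knockout libraries lay below wild type there and knockout 2 most. Between 41.0 and 109.5 Mb of chromosome 1, 267 genes had medians against wild type of -0.01 in knockout 3, -0.46 in knockout 1 and -0.37 in knockout 2. On chromosome 19, 377 genes between 42.5 and 59.1 Mb had a median of -0.46 in knockout 3, against 0.08 and 0.36 in knockout 1 and 2. Levels of DNA were not measured, and the cause of these blocks was not tested. The blocks held a small part of the genes that stood apart: 10 of 711 positioned genes above in knockout 1 (1.4%), 28 of 208 below in knockout 1 (13.5%), and 42 of 247 above in knockout 2 (17.0%), where 0.8%, 3.3% and 6.6% of all genes lay in such neighbourhoods. They held 10 of 158 below in knockout 2 (6.3%, against 1.6% of all genes). In knockout 3 they held 14 of 136 above (10.3%, against 5.4%) and 15 of 296 below (5.1%, against 4.0%).

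**Figure D4:**
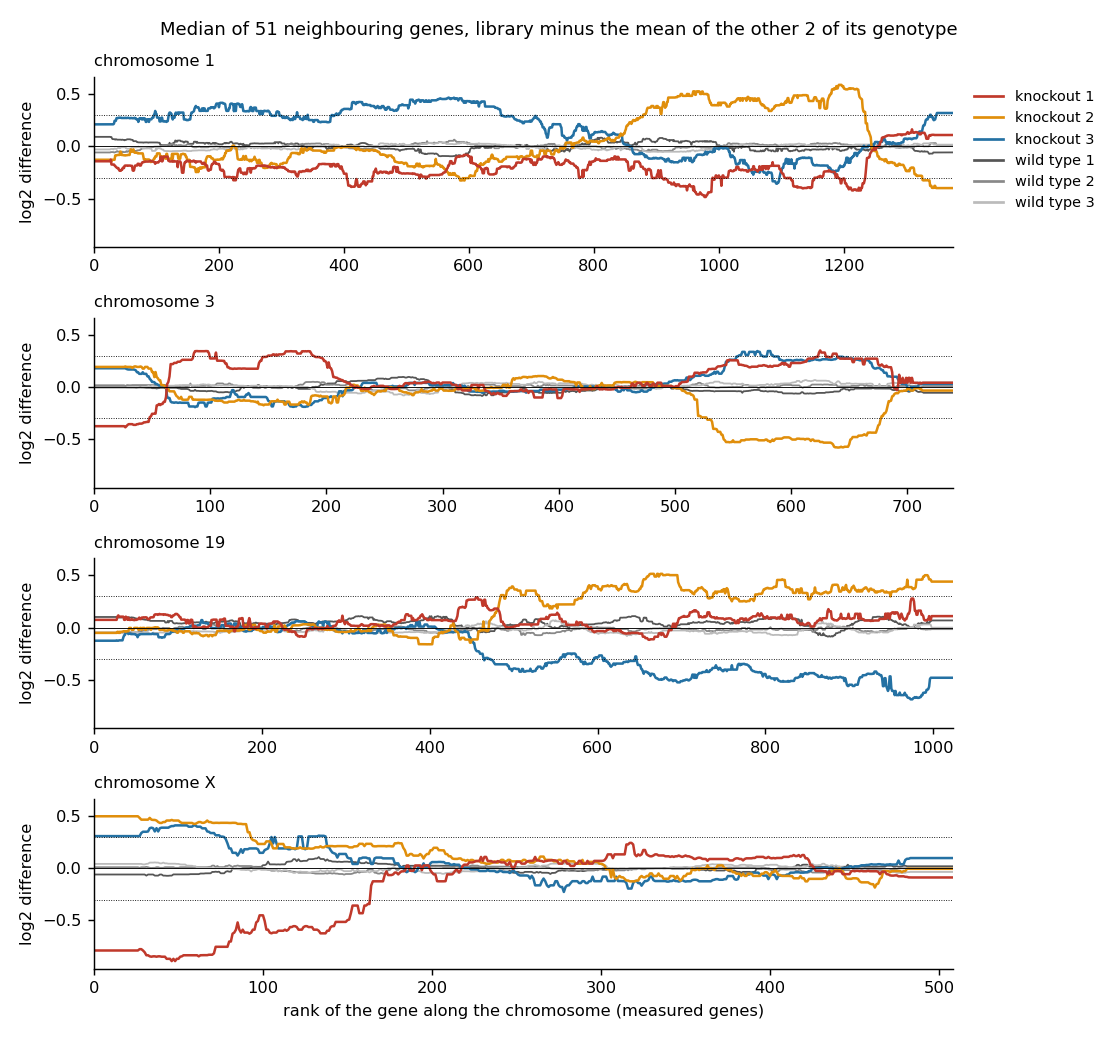
Median over 51 neighbouring genes of the difference between a library and the mean of the other 2 of its genotype (log2), along chromosomes 1, 3, 19 and X by gene rank; dotted lines mark -0.3 and 0.3. Knockout libraries leave 0 over long stretches, with a median of -0.69 in knockout 1 on the short arm of X, and wild-type libraries stay between -0.1 and 0.13.

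The authors' deposited table compares knockout with wild type and lists 3153 genes, of which 2746 were measured here at 1 CPM or more. At 754 of these (27.5%) a knockout library stood apart from the other 2, and 954 of the 1708 genes with a library apart (55.9%) are not in it. The table and the gaps share the knockout libraries, so these shares describe the overlap only.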

How the data were processed

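Messenger RNA of K562 cells was sequenced as stranded paired ends, per the labels' protocols. The authors deposited estimated counts per gene, unnormalized. The submitters' processing notes name STAR 2.4, RSEM 1.2.14, hg19 and GRCh37, with no role or order. A second deposited table holds the authors' log2 fold changes and p-values of knockout against wild type, used only for overlap. The replicates' origin is not stated in the labels.

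Estimated counts were rounded. In 34495 rows, 27 symbols turned into dates were restored. TMM factors came from edgeR 4.0.16 (R 4.3.3) over 14054 genes with at least 1 CPM in at least 1 library. Differences are on the log2(CPM + 0.5) scale, which understates those of low genes. For each knockout library and direction the 6 widest gaps (at least 5 CPM) were named, then up to 3 members apart (at least 2 CPM) of each of 12 main lists and 1 of each other list, 110 genes with the markers. Other list members given were chosen after their values were seen. All 35 lists, the members and the named genes were chosen with earlier results of these data known. The text gives those on which its groups turn. Some named genes are not reported here. The rule was tested on simulated data. Alternatives covered scaling, pseudocount, filters, gap size, yardstick, left-out libraries and neighbourhoods.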

Additional observations from a re-analysis of the deposited data

How the results depend on the processing

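Counts of genes above and below are given in the order knockout 1, 2 and 3. A pseudocount of 2 CPM gave 414, 115 and 64 above and 120, 66 and 124 below, and one of 0.1 CPM gave 289 below in knockout 2 and 528 in knockout 3. edgeR's default filter, which drops genes seen in too few libraries, gave 451, 110 and 120 above and 204, 154 and 216 below, so that knockout 2 had more genes below than above and fewer above than knockout 3. A gap of 1.5-fold gave 1298, 553 and 453 above and 641, 539 and 717 below, and a gap of 4-fold gave 212, 93 and 19 above and 50, 30 and 69 below. When any 1 library was left out, the counts ran from 768 to 1215 above and 226 to 616 below for knockout 1, 269 to 667 and 167 to 1101 for knockout 2, and 144 to 528 and 312 to 1215 for knockout 3, the high ends being comparisons with 1 knockout library alone. Knockout 1 had the most genes above and knockout 3 the most below under each of these gaps, pseudocounts and filters. The 6 counts moved by less than 1.5 times under 3 other scalings, without a filter, without a wild-type yardstick or with 2 times its range, without any 1 wild-type library, with neighbourhood medians removed, and, chosen after seeing the data, with approved symbols alone. No named gene changed sign under any alternative. Among list medians of at least 0.3, the red cell median of knockout 3 was -0.07 without knockout 1, that of imprinted genes in knockout 2 was 0.12 without knockout 1, and that of guanylate-binding proteins in knockout 3 was -1.30 without knockout 2 and -0.08 with neighbourhoods removed. The median of all genes stayed between -0.04 and 0.04 under each scaling. Genes under about 1 CPM rest on few reads, and their gaps are limited by depth. No paired analysis was possible because the comparison is within 1 genotype and gives no test to block.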

Other observations

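Some gene families outside the lists set a single knockout library apart; they were noticed after their values were seen and are given as values only. Of 5 measured transcripts of the HOXA cluster on chromosome 7, 4 stood apart below in knockout 3, among them HOXA2, HOXA3 and the antisense transcript HOTAIRM1. HOXA3 measured 0.293 CPM in knockout 3, against 5.42 and 8.31 CPM in knockout 1 and 2 and up to 0.113 CPM in wild type. All 4 measured members of the VCX family, testis genes on the short arm of chromosome X that are near-copies of each other, stood apart below in knockout 3. VCX3A measured 4.74 CPM in knockout 3, against 97.2 and 46.2 CPM in knockout 1 and 2 and 3.56 to 6.11 CPM in wild type. At both families knockout 3 lay near wild type and the other 2 knockout libraries above it.

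The aldo-keto reductases AKR1C1, AKR1C2 and AKR1C3, neighbours on chromosome 10 that act on steroids and share sequence, stood apart below in knockout 1. AKR1C2 measured 1.58 CPM in knockout 1, against 22.4 and 44.9 CPM in knockout 2 and 3 and 17.1 to 19.9 CPM in wild type. AKR1B1, on chromosome 7, went the other way, with 26.1 CPM in knockout 1 against 9.11 and 10.7 CPM in knockout 2 and 3. Of 8 measured MAGE-A genes MAGEA1 was the only member with a library apart, while MAGEA3 measured 150.0, 157.6 and 154.5 CPM in knockout 1, 2 and 3 and 163 to 182 CPM in wild type.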
